A study of Mus musculus with 4 samples.

Results

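The transcription factors Alx1, Alx4, Msx1, Msx2, Dlx5, Prrx1, Prrx2, Twist1 and Twist2 pattern the mesenchyme of the head and limb, and their mRNA levels were read in mouse embryonic fibroblasts (MEFs), connective-tissue cells grown from embryos. The members were the gene probes whose gene name in the scanner files was 1 of these 9 names. They were chosen by measured values, namely the log2 ratios of Alx4, which went in opposite directions in the 2 comparisons of the series, so all ratios are given as a description. The rule found 15 probes for 8 of the 9 genes, among 41174 probes carrying 27745 names. Alx1 was not found under its own name. A probe named Cart1 in the files was matched to Alx1 through its RefSeq accession, and its values are given separately. The group is mixed in kind: Alx4, Msx1, Msx2, Dlx5, Prrx1 and Prrx2 carry a homeodomain, whereas Twist1 and Twist2 are basic helix-loop-helix (bHLH) factors.

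MEFs from cyclin G1 knockout mice (CycG1-/-, called G1KO) were compared with MEFs of CycG1+/+ (WT) mice, and MEFs from cyclin G2 knockout mice (CycG2-/-, called G2KO) with MEFs of CycG2+/+ mice. All 4 cultures were in logarithmic growth, from mid-gestation embryos labelled C57BL/6J in strain, although the source text of the G2KO pair reads C57BL/7J. In the G1KO allele a PGK-neo cassette stands in place of the coding exons of Ccng1, and the construction of the Ccng2 allele is not given in the sources used here. Each pair was hybridised together on 2 two-colour arrays with the dyes exchanged, so there was 1 replicate per genotype, no p-value can be given, and each ± is the technical SD of the 2 arrays.

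Homeodomain proteins bind short AT-rich sites, often around a TAAT core, and those of the Alx and Prrx families can bind as pairs. Alx genes act in the face, skull and limb bud, Msx genes act downstream of BMP signals, Dlx5 acts in the jaw and in bone, and Prrx genes are widely used markers of limb and craniofacial mesenchyme. Twist proteins pair with other bHLH proteins at E-boxes, which have the letters CANNTG, and Id proteins take up those partners. Twist factors are known for holding back bone and muscle differentiation.

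The bases before the transcription start are shown for 3 genes that the comparisons below turn on, Msx2, Prrx1 and Twist2, as an example of what these promoters hold. The sequences are from RefSeq on build GRCm38.p6, which held promoters for 6 of the genes, namely Msx1, Msx2, Prrx1, Prrx2, Twist1 and Twist2. Both strands were searched for TAATTA and for CANNTG. Capitals mark TAATTA and CANNTG, no match of which overlapped another. Each sequence runs 5′ to 3′ along the gene over the 250 bases before its start.
Msx2 (chr13:53472781-53473030, minus strand): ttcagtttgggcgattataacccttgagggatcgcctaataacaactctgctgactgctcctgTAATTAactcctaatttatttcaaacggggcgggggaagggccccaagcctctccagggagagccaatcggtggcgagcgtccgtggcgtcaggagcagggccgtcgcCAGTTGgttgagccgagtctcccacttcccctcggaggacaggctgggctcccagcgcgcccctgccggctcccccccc
Prrx1 (chr1:163313651-163313900, minus strand): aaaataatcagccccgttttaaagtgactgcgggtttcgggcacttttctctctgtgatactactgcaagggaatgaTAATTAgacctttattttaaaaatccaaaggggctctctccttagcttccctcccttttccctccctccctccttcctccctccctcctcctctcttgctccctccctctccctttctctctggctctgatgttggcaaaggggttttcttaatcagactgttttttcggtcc
Twist2 (chr1:91801211-91801460, plus strand): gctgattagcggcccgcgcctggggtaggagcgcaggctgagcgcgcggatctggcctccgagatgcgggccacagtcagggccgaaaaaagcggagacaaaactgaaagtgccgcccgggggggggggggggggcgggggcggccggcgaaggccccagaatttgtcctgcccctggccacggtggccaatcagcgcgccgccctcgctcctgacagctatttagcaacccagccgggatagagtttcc
Msx2 held TAATTA 187 bases before the start and CAGTTG 79 bases before it, and Prrx1 held TAATTA 173 bases before the start. Msx1 held an E-box 210 bases before its start, and the windows of Prrx2, Twist1 and Twist2 held none of the searched letters. Of 32851 promoter windows of this length in the same table, 4.84% held TAATTA and 66.2% held CANNTG.

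Several facts of the whole series bear on these values. The log2 ratio of Ccng1 in G1KO was -6.67 ± 0.13 at its brighter probe, but the single Ccng2 probe gave 0.09 ± 0.27 in the other pair, so Ccng2 mRNA was not reduced at this probe, whose place relative to the deleted part is not given in the sources used here. Ccng1 was higher in that pair, by 2.67 ± 0.03 and 2.49 ± 0.04 at its probes. The study genotyped its G2KO MEFs by RT-PCR, which is not analysed here. That RNA is called G2KO-labelled, and every direction for it rests on the label. Both knockout RNAs had higher Xist than their WT, by 7.54 ± 0.43 and 7.24 ± 0.46, and had Eif2s3y of the Y chromosome below background on both arrays. In both WT RNAs Eif2s3y was above background on both arrays. The paper ascribes the higher Xist to female origin of the G1KO and G2KO MEFs. Sex and genotype thus cannot be told apart in either comparison. Of 9 fibroblast markers, all 9 were above background in every culture, and all 6 mesothelial markers were above background in both cultures of the G1KO pair but 2 of the 6 in those of the G2KO pair. Of the muscle, endothelial and blood markers, Myog, Myf5, Des, Pecam1, Cdh5, Tek, Ptprc and Adgre1 were not above background on both arrays in any culture. The others were: Cd68 (blood) in every culture, Kdr (endothelial) in both cultures of the G1KO pair, and Myod1 (muscle) in G1KO.

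To be tested, a probe had to be well above background in 1 genotype or both on each array of the pair. To be called, it had to differ by 2-fold or more, a log2 ratio of 1 in size, with both arrays of the pair past it in 1 direction. In G1KO, 3 of the 13 member probes tested were called higher, those of Alx4, Twist2 and Msx2, against 1.99% of all 25541 probes tested. None was called lower, against 3.8% of all probes. With the scanner's own log ratios the split was 3 higher and 2 lower, the latter being both Msx1 probes. In the G2KO-labelled RNA, 7 of 15 member probes were called lower, against 4.06% of 25430 probes tested, and these were 5 probes of Prrx1 and 1 each of Alx4 and Twist2. With median centring 4 were called lower. The probes of Msx2 and Prrx2 were called higher, against 2.31% of all probes. Since the group was chosen with these ratios known, the counts describe the members and nothing is read from their excess. The median log2 ratio of the member probes tested was 0.35 in G1KO and -1.04 in the G2KO-labelled RNA, beside -0.0023 and -0.0071 over all probes tested.

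**Figure D1:**
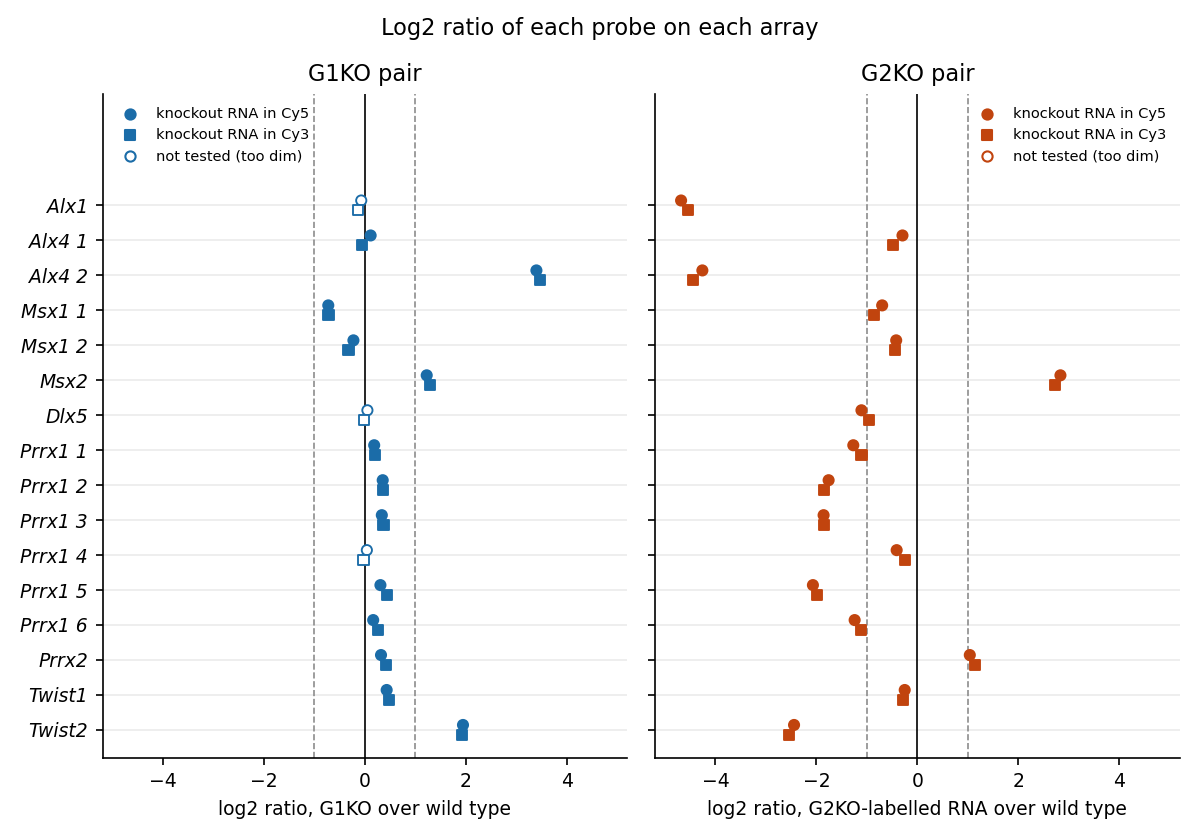
The log2 ratio of knockout label over WT for each member probe and for Alx1, on the array with knockout RNA in Cy5 (circles) and on the one with it in Cy3 (squares), for the G1KO pair (left) and the G2KO pair (right); open symbols were too dim to be tested and dashed lines mark the 2-fold threshold. The points of a probe lie close together in both panels, and Alx4 probe 2 and Twist2 lie on opposite sides of 0 in the panels.

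Alx4, a homeodomain factor that limits the anterior border of the limb bud and shapes the skull vault, had the largest gap between the comparisons among the member probes tested in both. Its probes, on the plus strand of chromosome 2 (mm8), are numbered from the 5′ end of the gene. Probe 2 (93481759 to 93481818) gave log2 ratios of 3.40 and 3.47 on the G1KO arrays, and of -4.26 and -4.45 on the G2KO arrays. This is a mean of 3.43 ± 0.05, or 10.8-fold higher, in G1KO, and of -4.35 ± 0.13, or 20.5-fold lower, in the G2KO-labelled RNA. No array of one pair came near the values of the other pair, and both genotypes were above background on every array.

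The levels of Alx4, as log2 signal after normalisation between arrays, show which cultures carried it. At probe 2 they were 10.54 in Cy5 and 10.39 in Cy3 for G1KO, and 6.93 and 7.14 for its WT. They were 7.82 and 7.68 for the G2KO-labelled RNA, and 12.1 in both dyes for the WT of that pair. In order, the WT of the G2KO pair had the highest level, then G1KO, then the G2KO-labelled RNA, and the WT of the G1KO pair had the lowest, with no overlap between neighbours. The opposite ratios of Alx4 thus came with WT cultures that differed from each other by 5.07 ± 0.18, more than either knockout differed from its own WT. The lowest level that counted as above background was 5.74 to 6.13 over the 8 channels.

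The other Alx4 probe did not give the same ratios. Probe 1 (93478683 to 93478742), which lies 3076 bases from probe 2, was above background in every culture but dim, with raw signals between 58.8 and 135. Its log2 ratio was 0.02 ± 0.12 in G1KO and -0.39 ± 0.13 in the G2KO-labelled RNA, and it was not called in either. At probe 2 the raw signals ran from 79.3 to 6142. The files assign the 2 probes to different transcripts, and which isoforms they read was not analysed here.

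**Figure D2:**
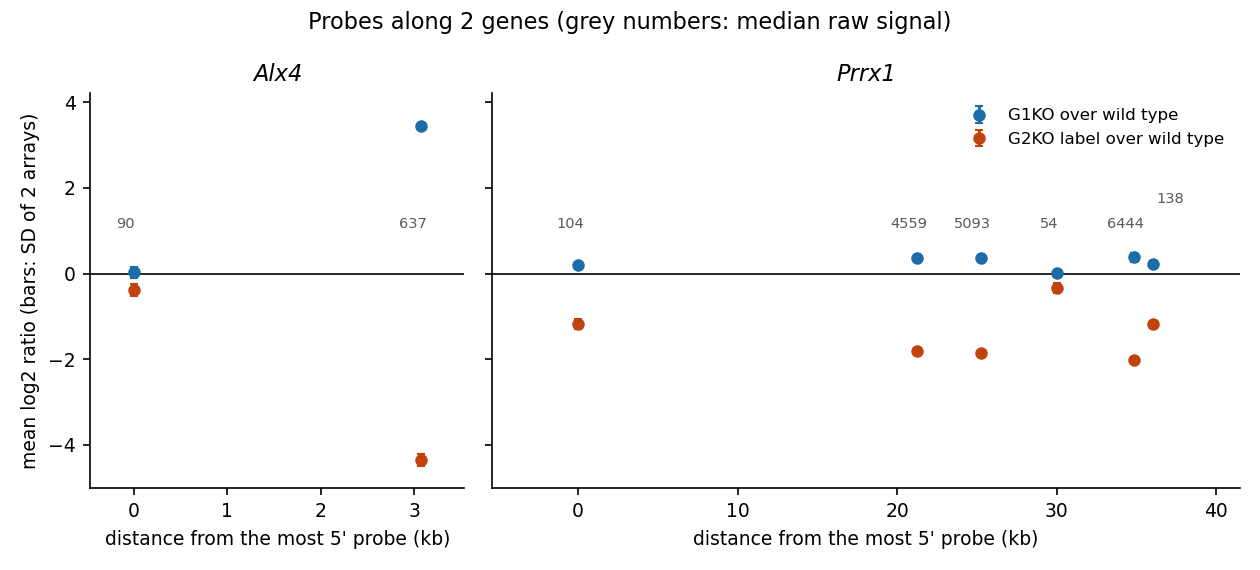
Mean log2 ratio of knockout label over WT (error bars, SD of the 2 arrays) for the probes of Alx4 (left) and Prrx1 (right), against the distance in kb from the most 5′ probe of the gene, with the median raw signal of each probe over the 8 channels in grey. The brighter probes gave the larger ratios, and the dim Alx4 probe (median 90.0) and Prrx1 probe 4 (median 54.1) lay near 0.

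Alx1, which acts with Alx4 in the face and eye, had a probe on the minus strand of chromosome 10 (102438226 to 102438285) that was not above background in either culture of the G1KO pair. In the G2KO pair its levels were 6.41 and 6.74 in the G2KO-labelled RNA and 11.3 and 11.1 in WT. The log2 ratios of -4.68 and -4.55 gave a mean of -4.62 ± 0.09, or 24.5-fold lower. Both values lay far past the threshold, and Alx1 was, like Alx4, at its highest in the WT of the G2KO pair, which was at least 35.7-fold above the WT of the G1KO pair.

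Twist2, a bHLH repressor of dermal and bone precursors, moved in the same directions as Alx4 and by less. Its probe lies on chromosome 1 (93678348 to 93678406, plus strand). The log2 ratios were 1.94 and 1.93 in G1KO and -2.44 and -2.54 in the G2KO-labelled RNA. The means were 1.94 ± 0.01, or 3.82-fold higher, and -2.49 ± 0.07, or 5.62-fold lower. The levels were 11.9 in both dyes in G1KO, 10.8 and 10.7 in the WT of the G2KO pair, 9.98 and 9.97 in the WT of the G1KO pair, and 8.29 and 8.31 in the G2KO-labelled RNA. No neighbours in this order overlapped, and the WT cultures differed by 0.82 ± 0.07, which is below 2-fold and far less than at Alx4.

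Twist1, the close relative of Twist2 that keeps head mesenchyme undifferentiated, differed far less between cultures. Its probe on chromosome 12 (34544793 to 34544852, plus strand) gave 0.43 and 0.48 in G1KO, and -0.25 and -0.29 in the G2KO-labelled RNA. The mean ratios of 0.46 ± 0.04 and -0.27 ± 0.03 had the same signs as those of Twist2 and stayed below 2-fold. Its level lay between 10.8 and 11.6 in all cultures.

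Among all 24150 probes tested in both comparisons, 134 were called higher in G1KO and lower in the G2KO-labelled RNA (0.555%), and 87 the other way (0.36%). Alx4 probe 2 and Twist2 were the 2 of 13 member probes called in opposite directions, both in the first way, which was part of how Alx4 was chosen. By the gap between the comparisons, 7.79 for Alx4 and 4.43 for Twist2, they stood at place 7 and place 71 of those 221 probes.

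**Figure D3:**
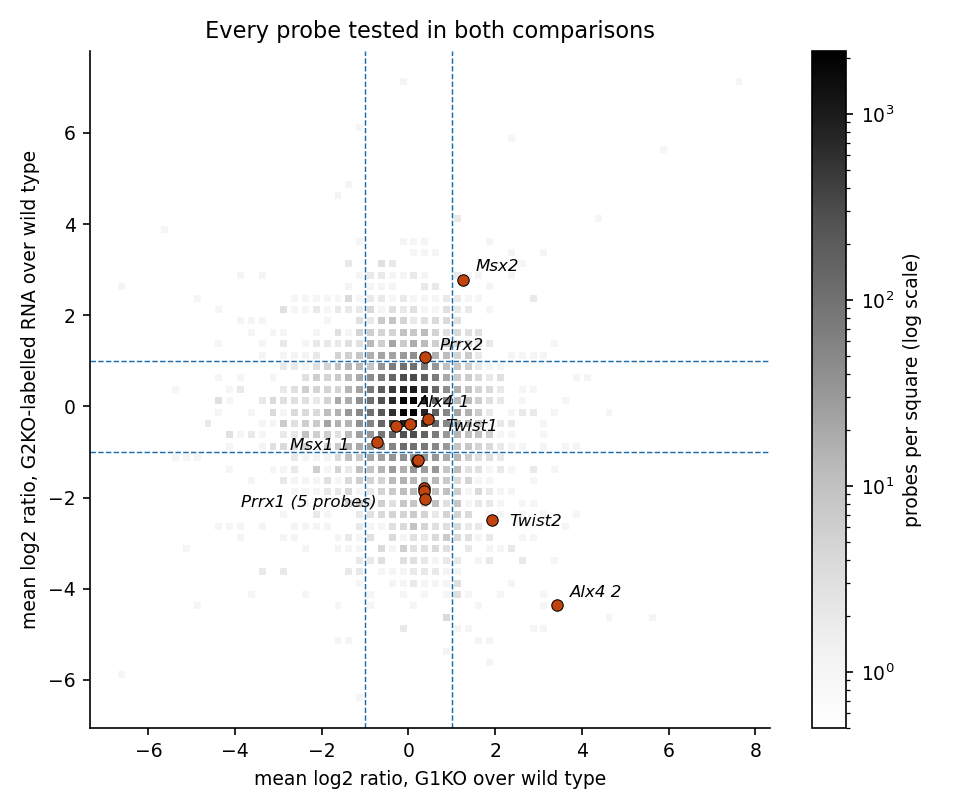
Mean log2 ratio of G1KO over WT (x axis) against that of the G2KO-labelled RNA over WT (y axis) for the 24150 probes tested in both comparisons, as grey squares of 0.25 by 0.25 shaded by the number of probes, with the 13 member probes as red points and dashed lines at 2-fold. Alx4 probe 2 and Twist2 lie at the lower right, Msx2 at the upper right, and the 5 Prrx1 probes below the centre.

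Prrx1, a paired-related factor that marks limb and craniofacial mesenchyme, was lower in the G2KO-labelled RNA at 5 of its 6 probes. The probes lie on the minus strand of chromosome 1, from 165119842 at the 5′ end to 165083721, and are numbered in that direction. The brightest, probe 5 (165084928 to 165084987), gave -2.07 and -1.99 in the G2KO-labelled RNA, a mean of -2.03 ± 0.06 or 4.08-fold lower. Probes 2 and 3 gave -1.80 ± 0.06 and -1.85 ± 0.01, and the dimmer probes 1 and 6 gave -1.19 ± 0.12 and -1.18 ± 0.08. The bright probes 2, 3 and 5 had median raw signals of 4559 to 6444, and the dimmer ones, with smaller ratios, had medians of 104 and 138. Probe 4 (165089749 to 165089808) was below background in the G2KO-labelled RNA, and its WT was at least 1.26-fold higher. With median centring in place of loess, probes 2, 3 and 6 gave means of -1.69, -1.74 and -1.19 but passed 2-fold on 1 array alone, which left 2 of the 6 probes called.

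In G1KO the same Prrx1 probes leaned the other way and stayed under the threshold. The log2 ratios of the 5 tested probes were 0.19 to 0.37, and each was above 0 on both arrays. At probe 5 the levels were 12.7 in both dyes in G1KO and 12.3 in its WT, against 11.7 and 11.6 in the G2KO-labelled RNA and 13.6 and 13.7 in its WT. The WT cultures differed by 1.36 ± 0.06 at this probe, with the WT of the G2KO pair higher, and the G2KO-labelled RNA was the lowest of the 4 cultures at each of the 5 tested probes.

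Prrx2, the second paired-related gene, did not follow Prrx1. Its probe on chromosome 2 (30703082 to 30703142, plus strand) gave 1.04 and 1.14 in the G2KO-labelled RNA, a mean of 1.09 ± 0.07 or 2.13-fold higher. In G1KO it gave 0.32 and 0.42, a mean of 0.37 ± 0.07. The levels were the highest of the group, 15.0 and 15.2 in the G2KO-labelled RNA, 14.0 in both dyes in its WT, 13.3 and 13.4 in G1KO and 13.0 and 12.9 in the WT of the G1KO pair. These are signals of a single probe per gene, which do not compare the amounts of the mRNAs. No culture overlapped its neighbour, and the ratio in the G2KO-labelled RNA was close to the threshold on 1 array. With median centring in place of loess the mean was 1.23 and the call was lost, since 1 array no longer passed 2-fold.

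Msx2, a homeodomain repressor of the skull and limb that responds to BMP, was higher in both knockout RNAs. Its probe on chromosome 13 (53475498 to 53475557, minus strand) was printed 10 times per array. It gave 2.84 and 2.73 in the G2KO-labelled RNA, a mean of 2.78 ± 0.08 or 6.88-fold higher. In G1KO, where the ratios were 1.22 and 1.29, the WT was not above background on either array, so that G1KO was at least 2.39-fold higher. The levels were 11.6 and 11.5 in the G2KO-labelled RNA, 8.79 and 8.72 in its WT, 7.49 and 7.19 in G1KO, and 5.90 and 6.27 in the WT of the G1KO pair. The WT of the G1KO pair lay at background, the other cultures were apart, and Msx2 was thus higher in the WT of the G2KO pair than in either culture of the G1KO pair.

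Msx1, the partner of Msx2 in tooth, palate and limb, gave negative ratios in both knockout RNAs and was not called. Probe 1 (chromosome 5, 38109315 to 38109374, minus strand) gave -0.73 and -0.72 in G1KO and -0.70 and -0.86 in the G2KO-labelled RNA. The means of -0.72 ± 0.0036 and -0.78 ± 0.12 were larger than the spread between arrays but under 2-fold. Probe 2 (38109253 to 38109309), which lies further along the gene and was printed 10 times per array, gave -0.43 ± 0.01 in the G2KO-labelled RNA. In G1KO it was below background, at least 1.20-fold lower than in WT. With the scanner's log ratios both probes were called lower in G1KO, at -1.30 and -2.05. Levels at probe 1 were 9.34 and 9.18 in the WT of the G2KO pair, 8.49 and 8.48 in the G2KO-labelled RNA, 7.73 and 7.58 in the WT of the G1KO pair and 6.85 and 7.01 in G1KO.

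Dlx5, which acts in the lower jaw and in osteoblasts, was near background. Its probe on chromosome 6 (6828063 to 6828122, minus strand) was not tested in the G1KO pair. In the G2KO pair it gave -1.11 and -0.96, a mean of -1.04 ± 0.10, and was above background in the G2KO-labelled RNA on 1 of 2 arrays. It was just short of a call, was called lower under 5 of 8 alternatives, and reached -3.01 with the scanner's log ratio. Its level in the WT of that pair, 7.42 in both dyes, stood above the 6.17 to 6.45 of the other cultures.

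Across the 4 cultures, the level was highest in the WT of the G2KO pair at 10 of the 13 member probes tested in both comparisons, beside 28.4% of all 24150 such probes. The 10 belong to 4 of 7 genes, Alx4, Msx1, Prrx1 and Twist1, with Prrx1 counted at 5 probes and Alx4 and Msx1 at 2 each. The exceptions were Msx2 and Prrx2, highest in the G2KO-labelled RNA, and Twist2, highest in G1KO. Between the WT cultures, 8 of 15 member probes were called higher in the WT of the G2KO pair, at least 2-fold in each dye, against 5.39% of 26033 probes, and none was called lower, against 5.64%. The 8 were Alx4 probe 2 (5.07 ± 0.18), Msx1 probe 1 (1.61 ± 0.01), Prrx1 probes 2, 3 and 5 (1.21 to 1.36), Prrx2 (1.06 ± 0.01), and Msx2 and Dlx5, which were not above background in the WT of the G1KO pair and were at least 6.36-fold and at least 2.29-fold higher. Prrx1 is counted here at 3 probes, and these WT levels also enter the ratios that chose the group.

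Between the knockout RNAs the differences ran both ways. Msx2, Prrx2 and Msx1 probe 1 were called higher in the G2KO-labelled RNA than in G1KO, by 4.19 ± 0.18, 1.78 ± 0.01 and 1.55 ± 0.11, against 3.94% of 25531 probes. Twist2 and Alx4 probe 2 were called lower, at -3.61 ± 0.01 and -2.72 ± 0.0012, against 4.73%. Prrx1 probe 5 gave -1.04 ± 0.10 and was short of 2-fold in Cy5, at -0.97. Without normalisation between arrays, 5 member probes were called lower, and within Cy3 alone 4 were. Levels of cultures in different pairs came from different arrays of the same slide.

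**Figure D4:**
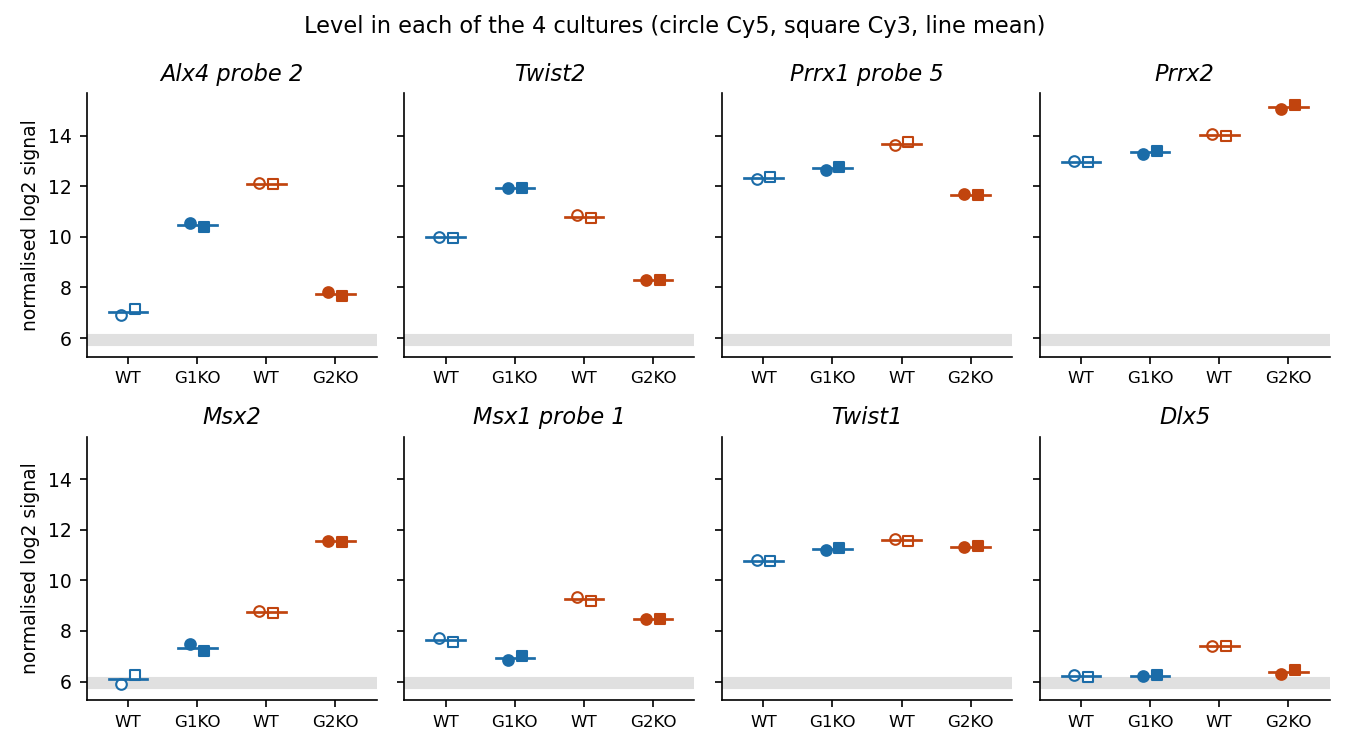
Normalised log2 signal of the brighter probe of each member gene in the WT and G1KO cultures of the first pair (blue) and the WT and RNA labelled G2KO of the second (red), in Cy5 (circles) and Cy3 (squares) with the mean as a line; the grey band spans the lowest levels that counted as above background, 5.74 to 6.13. Alx4 runs from 7.03 to 12.1 on average, with the WT of the G1KO pair lowest and the WT of the G2KO pair highest.

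Markers of other cells differed between the cultures too. The summed normalised signal of the mesothelial markers was 200485 to 240862 in the WT of the G1KO pair and 25355 to 31112 in G1KO. There 5 of 6 were called lower, against 3.8% of all probes, among them Lrrn4 (-5.92 ± 0.02) and Upk1b (-5.51 ± 0.14). The sixth, Krt19, was called higher (2.90 ± 0.11). The mesothelial sum was 1675 to 1759 in the WT of the G2KO pair and 3790 to 4116 in the G2KO-labelled RNA. There Msln was called higher (1.45 and 1.74 on its arrays) and Krt19 lower (-1.40 ± 0.16). The summed signal of the fibroblast markers was 543932 to 623290 in the WT of the G2KO pair and 411537 to 445995 in the WT of the G1KO pair. It was 295688 to 345411 in G1KO and 178653 to 255219 in the G2KO-labelled RNA. In G1KO 1 of 9 was called lower, against 3.8% of all probes, namely Dcn (-4.05 ± 0.12, with -0.89 at its other probe). Lum (1.31 ± 0.04) and Pdgfrb (1.09 ± 0.01) were called higher there, against 1.99%. In the G2KO-labelled RNA 6 of 9 were called lower, against 4.06%, most of all Pdgfra (-4.63 ± 0.09, with -0.59 at its other probe). The summed signal of the cartilage markers was 7141 to 7275 in the WT of the G2KO pair and 1632 to 1677 in the G2KO-labelled RNA. There Sox9 (-3.08 ± 0.12) and Col2a1 (-1.50 ± 0.02, with 0.63 at its other probe) were called lower, against 4.06%. Acan was not called there (-0.13 ± 0.01). In the other pair the cartilage sum was 4158 to 4200 in WT and 3645 to 3821 in G1KO. Sox9 was called higher in G1KO (1.32 ± 0.19), against 1.99%. Col2a1 (-0.89 ± 0.01, with 0.23 at its other probe) and Acan (0.04 ± 0.12) were not called in G1KO. The summed signal of the epithelial markers was 31016 to 33303 in the G1KO pair and 331 to 384 in the G2KO pair. Epcam and Cldn4 were not above background on either array in any culture, and those above it in the G1KO pair were Cdh1, Krt8 and Krt18. Krt8 was called lower in G1KO (-1.14 ± 0.03). The neural genes Sox2 (5.59 ± 0.35) and Nes (3.37 ± 0.23) were called higher in the G2KO-labelled RNA, and Nes was also in G1KO (2.34 ± 0.17). In bulk RNA, fewer cells of a type and less RNA per cell cannot be told apart, and the part of these differences in the values of Alx4, Twist2 and Prrx1 was not tested.

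Other transcription factor genes of head and limb mesenchyme, mostly homeobox and bHLH genes, were read at their brightest tested probe. Of 28 such genes, 19 were tested in G1KO, with a median log2 ratio of -0.13. There 3 were called higher and 1 lower, against 1.99% and 3.8% of all probes. In the G2KO-labelled RNA, 18 were tested, where 1 was called higher and 9 lower with a median of -1.03. All probes had a median of -0.0071, with 2.31% called higher and 4.06% lower. Hic1 (-1.18 ± 0.03), among those called lower, and Pax9, not called, are neither homeobox nor bHLH genes. Lhx8, a LIM homeodomain factor of the jaw and palate, was higher in G1KO by at least 7.56-fold and lower in the G2KO-labelled RNA by at least 4.04-fold, at the brighter of its 2 probes, the other giving 0.85 and -0.44. Its relative Lhx9, which acts in the limb bud and gonad, gave 2.63 ± 0.32 and -2.09 ± 0.31, with 2 of its 3 probes called in each. Shox2, needed for proximal limb bones, gave 1.33 ± 0.03 and -2.48 ± 0.30.

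Not all genes of the list took those directions. Dlx2, which patterns the first branchial arch, gave -0.84 ± 0.19 in G1KO and -2.50 ± 0.18 in the G2KO-labelled RNA. Dlx4 was called lower in G1KO (-1.80 ± 0.03) and was not tested in the other pair. Lhx2, a limb bud factor, was called higher in the G2KO-labelled RNA (1.73 ± 0.02) and gave -0.99 ± 0.05 in G1KO.

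**Figure D5:**
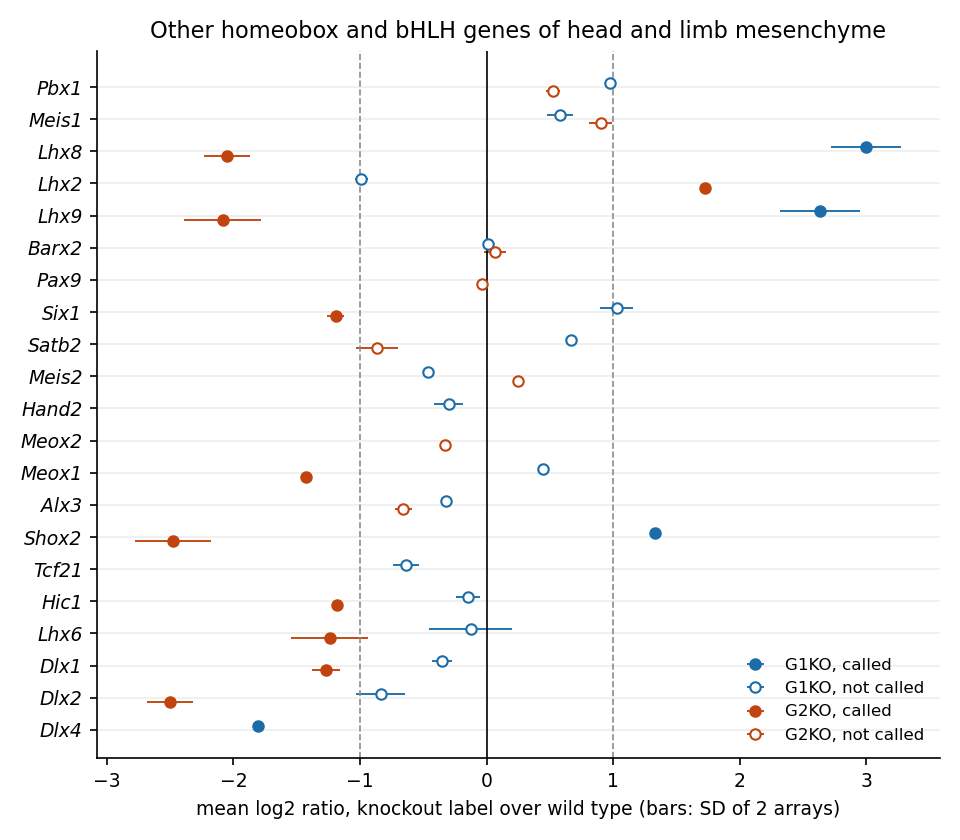
Mean log2 ratio of knockout label over WT for the other listed transcription factor genes, mostly homeobox and bHLH, tested in at least 1 comparison. Each is read at its brightest tested probe, for G1KO (blue) and the G2KO-labelled RNA (red). Error bars are the SD of the 2 arrays, filled points were called and dashed lines mark 2-fold. Lhx8, Lhx9 and Shox2 have filled points on opposite sides of 0.

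Of the 7 bHLH partners and Id inhibitors, all tested, 2 were called higher in G1KO, against 1.99% of all probes. In the G2KO-labelled RNA 2 were called higher, against 2.31%. They were Id4 (1.31 ± 0.02) and the E-protein Tcf4 (1.03 ± 0.02, at 1 of its 3 probes) in G1KO, and Id2 (1.64 ± 0.10) and Id1 (1.57 ± 0.09), BMP targets that take up the partners of Twist, in the G2KO-labelled RNA. Id1 gave -0.83 ± 0.03 in G1KO, and Id4 gave 0.60 ± 0.04 in the G2KO-labelled RNA. Id3 was called in neither, at -0.06 ± 0.17 in G1KO and -0.80 ± 0.09 in the G2KO-labelled RNA.

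In the BMP pathway, which lies upstream of Msx genes, 15 of 18 genes were tested in G1KO and 14 in the G2KO-labelled RNA. The ligand Bmp4 was called lower in both, at -1.40 ± 0.04 and -3.06 ± 0.06. Of the Msx genes, Msx2 was called higher in both, whereas Msx1 probe 1 gave -0.72 and -0.78 and was not called. A link of Bmp4 with either gene was not tested. Bambi, a decoy receptor, was called higher in G1KO (1.63 ± 0.02), and the antagonist Grem1 was called lower in the G2KO-labelled RNA (-1.58 ± 0.11). The medians of the list were -0.0039 and -0.16.

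In the hedgehog pathway, whose limb domain Alx4 bounds, 10 of 14 genes were tested in each comparison, with medians of 0.34 and -0.35. Hhip, a hedgehog-binding inhibitor, was called higher in G1KO (2.31 ± 0.04, with 0.77 at its other probe) and was at least 3.37-fold lower in the G2KO-labelled RNA. Gli2, a transcription factor of the pathway, was called higher in G1KO (1.22 ± 0.13), and Gas1, a co-receptor, was called lower in the G2KO-labelled RNA (-2.21 ± 0.20). Of 11 FGF receptor and response genes, Dusp6, which restrains ERK signalling, was the 1 called, lower in G1KO (-1.17 ± 0.07), against 3.8% of all probes. The medians of that list were 0.23 and -0.31.

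Among 12 osteoblast genes, 10 were tested in each comparison. Spp1, the bone matrix protein osteopontin, was called higher in G1KO (3.76 ± 0.21) and lower in the G2KO-labelled RNA (-2.26 ± 0.19). Pth1r, the parathyroid hormone receptor (-2.11 ± 0.03), and Phex (-1.47 ± 0.08) were also called lower in the G2KO-labelled RNA, where 4 of the 10 were, against 4.06% of all probes. Sp7 and Ibsp, genes of committed osteoblasts, were too dim to be tested in either.

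A list of 11 genes held regulators of mesenchymal transition and cadherins, with Vim, Fn1, Pdgfra and Pdgfrb beside them. Vim, Pdgfra and Pdgfrb were also counted among the fibroblast markers above. Snai2, a repressor downstream of Twist1 in several tissues, was called higher in G1KO (1.22 ± 0.12) and lower in the G2KO-labelled RNA (-1.50 ± 0.16). Pdgfrb was called higher in G1KO (1.09 ± 0.01). In the G2KO-labelled RNA 4 of the 10 tested genes were called lower, against 4.06% of all probes. Lowest were Pdgfra and Cdh11 (-2.24 ± 0.33), the cadherin of mesenchyme. Cdh2 was called higher there (1.92 ± 0.16, at 1 of its 3 probes), against 2.31%. Over all the lists, 77 genes were tested in both comparisons. The 6 called higher in G1KO and lower in the G2KO-labelled RNA were Lhx8, Lhx9, Shox2, Hhip, Spp1 and Snai2. None was called the other way, beside 0.555% and 0.36% of all probes tested in both, and Bmp4 was lower in both. The lists were chosen with earlier results of these data known, so nothing is read from an excess in their counts.

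The genes whose ratios on the 4 arrays lay nearest to those of Alx4 probe 2 were sought among 15716 genes tested in both comparisons, by the Euclidean distance of their log2 ratios. The nearest were Slc1a3, a glutamate transporter (distance 0.521), Il1rl1, the receptor of interleukin-33 (0.590), Lrrc17 (0.737), Limch1 (1.18) and Penk, which encodes the enkephalin precursor (1.51). Slc1a3 gave 3.12 ± 0.07 in G1KO and -4.19 ± 0.02 in the G2KO-labelled RNA. Penk gave 3.41 ± 0.11 in G1KO and -3.30 ± 0.10 in the other. The other probes of Slc1a3, Il1rl1, Limch1 and Penk gave smaller ratios of the same signs.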

How the data were processed

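Total RNA of 4 MEF cultures was amplified from an oligo-dT primer and hybridised, knockout with WT, to 4 two-colour Agilent arrays, all on 1 slide and read in 1 scan. The scanner files deposited by the authors give linear intensity, namely mean spot brightness and median local background, with no normalisation. They also hold the authors' log10 ratio after the scanner software's background and dye correction, from Agilent Feature Extraction 10.5.1.1 per the file headers (9.1 per the submitters' processing notes). The deposited series table holds the same log10 ratio turned to knockout over WT. The p-values deposited with the ratios were not used.

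The background was corrected in limma 3.58.1 (R 4.3.3) by normexp with an offset of 50, control and outlier spots were left out, arrays were normalised by loess, and spots of a probe were averaged. Levels come after Aquantile normalisation of the channels. Bounds set the bright genotype's mean level against the larger of the dim level and the lowest level above background in that channel, averaged over arrays, and are open to dye bias. The arrays of a pair were counted as 1 replicate, so no test was made. The SD between arrays had a median over tested probes of 0.0821 (log2) for the G1KO arrays and 0.0814 for the G2KO arrays, and having so few arrays limits the precision. No spot was saturated.

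Probe positions are as the files give them, on mm8. Gene names of the lists came from RefSeq (GRCm38.p6), by accession for 24375 probes, by symbol for 6301 and by older symbol for 2426. The members and lists were chosen with earlier results of these data known. Named genes were every member, per list at most 3 called genes of the largest ratio in each direction and comparison, the 5 genes nearest to Alx4, and Ccng1 and Ccng2. Markers and sex-linked genes beside these, and list genes named as too dim or as uncalled in a pair, were named after their values were seen. The alternatives concerned background, normalisation, filter, threshold and dye.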

Additional observations from a re-analysis of the deposited data

Results flagged for a closer look

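These member probes were noted because both arrays of the G1KO pair went one way and both of the G2KO pair the opposite way. The difference between the comparisons was not tested, since each has 1 replicate per genotype. The log2 ratio in the G2KO comparison minus that in the G1KO comparison was -7.79 for Alx4 probe 2, -4.43 for Twist2 and -0.73 for Twist1. For Prrx1 it was -1.38 at probe 1, -2.15 at probe 2, -2.21 at probe 3, -2.40 at probe 5 and -1.39 at probe 6. Of these 8 probes, Alx4 probe 2 and Twist2 passed 2-fold in both comparisons, the Prrx1 probes in the G2KO comparison alone and Twist1 in neither.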

How the results depend on the processing

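Over 256 recomputed log2 ratios of the member probes and Alx1 (8 alternatives of processing or dye for each), 231 kept their direction and their side of 2-fold, 9 passed 2-fold where the reported value did not, 4 lost a call, 10 uncalled values near 0 changed sign and 2, of Alx1 in G1KO, became 0. No called ratio was reversed. Alx4 probe 2 stayed called throughout, between 3.40 and 4.47 in G1KO and between -4.89 and -4.26 in the G2KO-labelled RNA. The 4 lost calls, all with median centring in place of loess in the G2KO-labelled RNA, were those of Prrx1 probes 2, 3 and 6 and Prrx2, whose means stayed at -1.69, -1.74, -1.19 and 1.23 while 1 array of the pair no longer passed 2-fold. Member probes called there then numbered 1 higher and 4 lower. In G1KO the scanner log ratio and the series table, which are the same measure, each gave 2 member probes lower, and a 1.5-fold threshold gave 1. A 4-fold threshold left 1 member probe higher in G1KO, and 1 higher and 2 lower in the G2KO-labelled RNA. Counting Alx1 added 1 probe to those lower in the G2KO-labelled RNA. Between the WT cultures, 6 to 11 member probes were called higher over the alternatives, beside 8 as reported. Between the knockout RNAs, probes called lower were 5 without normalisation between arrays and 4 within Cy3 alone.

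Over all probes in G1KO, called 509 higher and 970 lower, median centring gave 295 and 518, the scanner log ratio 1248 and 1607, the authors' deposited ratios 1245 and 1604, a 1.5-fold threshold 1286 and 2055 and a 4-fold threshold 97 and 288. In the G2KO-labelled RNA, with 587 and 1032, the same settings gave 329 and 626, 1415 and 1981, 1414 and 1978, 1597 and 2117, and 132 and 335. The cause of these shifts was not tested. With the scanner log ratio, Msx2 moved in G1KO to 4.78 and Dlx5 in the G2KO-labelled RNA to -3.01, where Dlx5 was called under 5 of 8 alternatives. Ranking by the largest difference over the arrays kept 4 of the 5 genes nearest to Alx4. No paired analysis was possible because each genotype had 1 culture, set against its WT within each array, which leaves no pairs of replicates to block on.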
